A study of Arabidopsis halleri with 24 samples.

Results

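The metal tolerance proteins are the plant members of the cation diffusion facilitator family, membrane carriers that exchange protons for divalent metal ions and move those ions out of the cytosol into organelles. In Arabidopsis thaliana, MTP11 carries manganese into a Golgi-related or prevacuolar compartment and contributes to manganese tolerance, and MTP8 carries manganese into the vacuole. MTP12 of A. thaliana is known as a partner of MTP5 in a complex that brings zinc into the Golgi. The genes were found through the probe table of the array platform. MTP11, AT3G58060 (MTP8) and AT2G04620 (MTP12) were taken as the probe sets whose only listed symbol was 1 of these names. Each was found on 1 probe set (266963_at, 251620_at and 263054_at in the same order), which makes 3 of the 13513 probe sets with 1 symbol and of 22746 in all.

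The series measured transcripts in pooled plants recorded as Arabidopsis halleri, a zinc-hyperaccumulating relative of A. thaliana, on 24 ATH1 arrays. The 8 groups of 3 arrays crossed a bulk (accumulating or non-accumulating), an organ (the whole root system or rosette leaves) and a medium (control or high zinc, with 25 µM zinc in the treatment labels). All groups had 10 h of light in a growth room and a full mineral medium. The bulks are known to be pooled by phenotype from offspring of A. halleri crossed with A. petraea, which does not accumulate zinc, although the titles do not give the parents. A pooled bulk shows no single genotype, and replicate 1 of the non-accumulating control roots had halleri as its source name where the other 23 arrays had a bulk. The labels do not say that replicates were separate plants or cultures, and p-values then speak only for the array-to-array spread, which may be technical.

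Values are linear MAS5 signals as the authors scaled them. Signals carry no read depth, so precision rests on the number of arrays. Arrays of 1 group correlated at 0.935 to 0.961 in roots and at 0.868 to 0.963 in leaves. Pairs of a root and a leaf array correlated at 0.660 to 0.797. The organ labels held against their markers. The summed signal of 3 root markers (EXPA7, EXPA18 and PYK10, of 8 listed) was 1410 to 2527 in roots against 79.4 to 162 in leaves. PYK10 made up most of the root sum, at 1160 to 2257. EXPA7 overlapped between the organs, at 40.8 to 179 in roots and 18.5 to 73.8 in leaves. The summed signal of 5 leaf markers (of 8 listed) was 109 to 299 in roots against 5497 to 20304 in leaves. The probes were designed on A. thaliana, and sequence differences in A. halleri can lower a signal. Signal levels were thus not compared between genes, though their ratios, changes and spreads are set side by side. In whole organs, fewer cells of a type and less RNA per cell cannot be told apart.

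The 3 carriers differed in how far they varied. For MTP11 the highest group mean signal was 2.98 times the lowest, for AT3G58060 2.44 times and for AT2G04620 1.45 times. MTP11 lay above the filter on low signals (54.8 over all arrays, the median of all values) on 24 of 24 arrays, AT3G58060 on 20 and AT2G04620 on 23, and each had all 8 group means above it. On the log2(signal + 16) scale the SD within groups of MTP11 was 0.16 in roots and 0.56 in leaves, that of AT3G58060 was 0.48 and 0.72, and that of AT2G04620 was 0.20 and 0.13. The spread of MTP11 was thus larger in leaves than in roots, and that of AT3G58060 was the largest of the 3 in both organs. AT2G04620 ran from 54.4 to 113 over all arrays, close to the filter, and no detection calls were given. The part of a weak signal in its small range was not tested. All changes below are on this log2 scale, which understates the change of low signals.

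**Figure D1:**
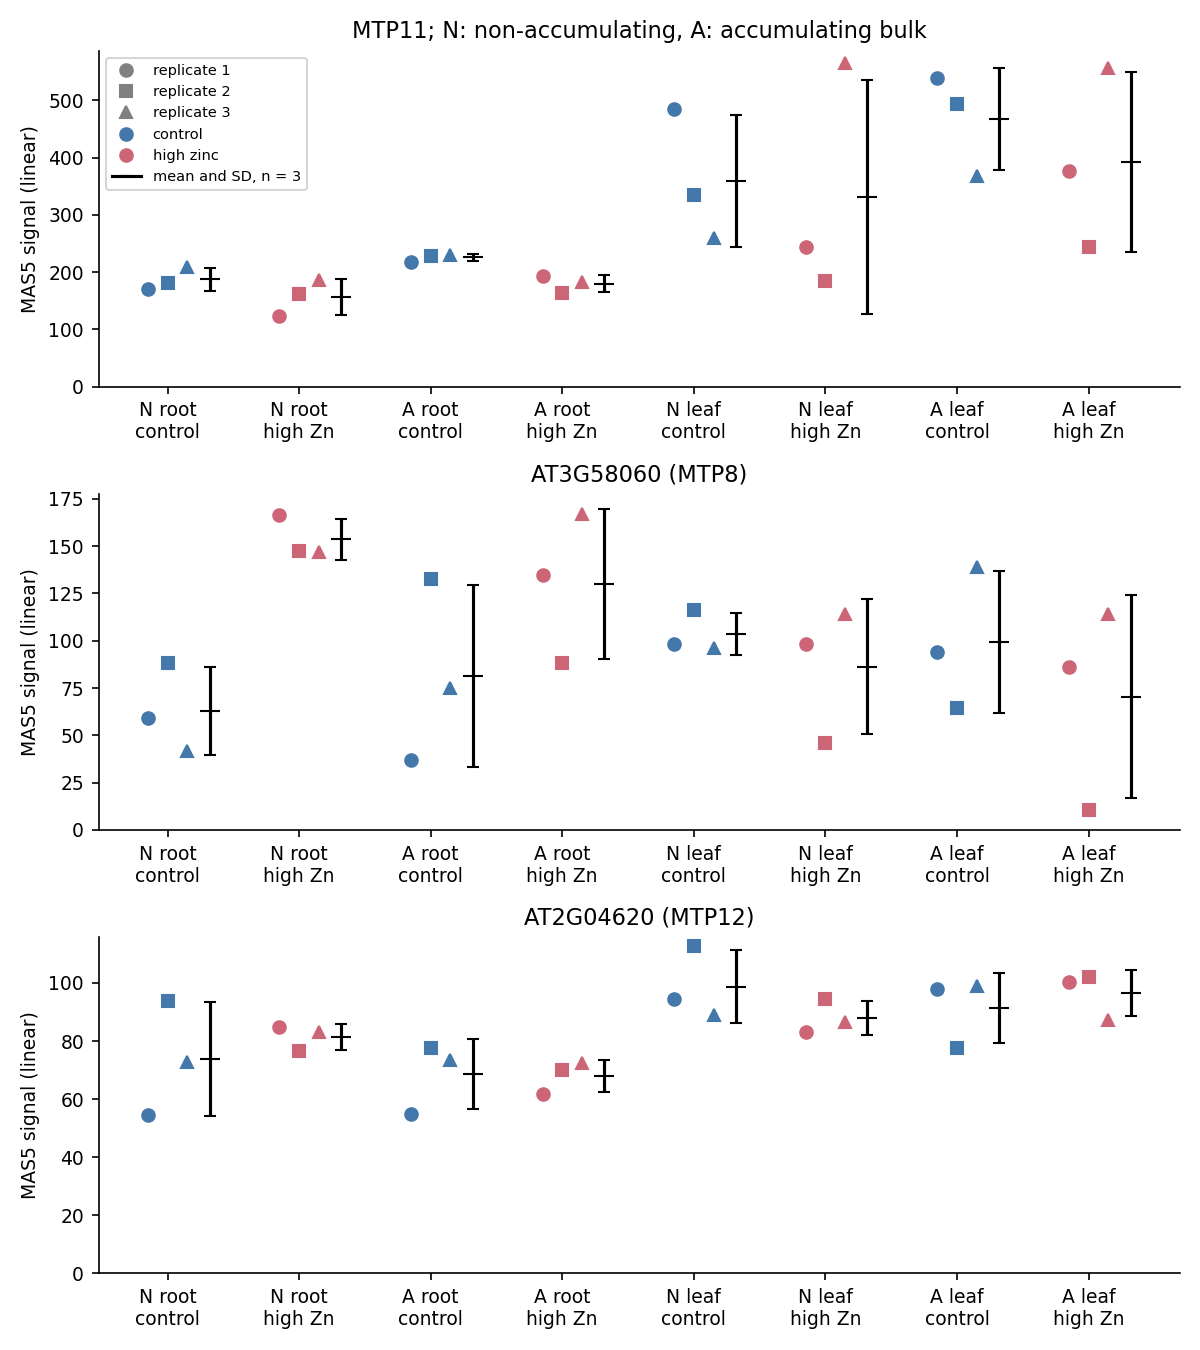
MAS5 signal of the 3 carriers (linear y axes from 0) in each of the 24 arrays, by group on the x axis; symbols are replicate numbers, colours are media, and bars are the mean and SD of 3 arrays. MTP11 was highest in leaves, AT3G58060 was highest in high-zinc roots, and AT2G04620 stayed between 54.4 and 113.

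MTP11, the manganese carrier of the secretory pathway, had lower signals in roots than in leaves in both bulks and on both media. In roots its 12 signals ran from 124 to 231 with a median of 184, and in leaves from 185 to 565 with a median of 372. The mean was 187 (SD 31.1, n = 12) in roots and 387 (SD 137, n = 12) in leaves. The ranges overlapped between 185 and 231.

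In non-accumulating control roots the MTP11 signals were 171, 182 and 209, and in the leaves of that bulk and medium 484, 335 and 259, in the order of replicates 1 to 3. In accumulating control plants they were 219, 228 and 231 in roots and 540, 494 and 368 in leaves. Every control leaf array lay above every control root array of its bulk. With high zinc the MTP11 signals were 124, 162 and 186 in non-accumulating roots and 243, 185 and 565 in the leaves, where the highest root array passed the lowest leaf array. In the accumulating bulk with high zinc they were 193, 164 and 183 in roots and 377, 243 and 557 in leaves, without overlap.

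Over all groups the root minus leaf change of MTP11 was -0.92 (SE 0.16, adjusted p = 3.06e-05, limma with Benjamini-Hochberg adjustment over 14403 probe sets). Most of the transcriptome differed between the organs: 67.9% of probe sets passed in this comparison, and 27.4% passed as lower in roots. MTP11 was lower with adjusted p of 0.0394 in non-accumulating control plants, where 15.8% of all probe sets passed as lower, and 0.0380 in non-accumulating high-zinc plants (15.6%). The adjusted p of MTP11 was 0.0170 in accumulating control plants (16.7% of all passed as lower) and 0.0185 in accumulating high-zinc plants (15.6%). These calls within 1 bulk and medium were not recomputed under other processing choices. In non-accumulating high-zinc leaves, replicate 3 had a signal of 565 against 243 and 185 in replicates 1 and 2, so that call leans on 1 array. Without overlap between the arrays, 20.1% of probe sets were lower in roots in the non-accumulating control plants, 21.6% in the accumulating control plants and 19.8% in the accumulating high-zinc plants. By bulk, the MTP11 change was -0.85 in non-accumulating and -0.99 in accumulating plants. The difference between these, the organ by bulk interaction, was -0.13 (SE 0.32, 95% interval -0.79 to 0.53, adjusted p = 0.999).

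The order of MTP11 group means placed all 4 leaf groups over all 4 root groups. From the top it ran accumulating control leaves (467, SD 89.2, n = 3), accumulating high-zinc leaves (392, SD 157, n = 3), non-accumulating control leaves (359, SD 115, n = 3) and non-accumulating high-zinc leaves (331, SD 205, n = 3). The roots followed with accumulating control (226, SD 6.37, n = 3), non-accumulating control (187, SD 19.5, n = 3), accumulating high zinc (180, SD 14.5, n = 3) and non-accumulating high zinc (157, SD 31.4, n = 3). Of the 7 steps between neighbours in this order, the step from accumulating to non-accumulating control roots alone was larger than the larger SD of the pair and without overlap. The MTP11 change at that step was 0.25 (SE 0.16, adjusted p = 0.957), and 4.39% of all probe sets were likewise higher without overlap.

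In roots, MTP11 had somewhat lower values with high zinc. The change over both bulks was -0.28 (SE 0.11, 95% interval -0.52 to -0.03, adjusted p = 0.683), which did not pass. It was -0.24 (SE 0.16) in the non-accumulating bulk, where the arrays overlapped, and -0.31 (SE 0.16) in the accumulating bulk, where they did not. In the accumulating comparison 3.66% of all probe sets were lower without overlap. The bulk difference of MTP11 in roots was 0.22 (SE 0.11, adjusted p = 0.712). In these root comparisons limma called 0% of 12489 probe sets both for zinc, with 854 at an unadjusted p under 0.05, and for the bulk (0%, with 862).

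In leaves, the zinc change of MTP11 differed in sign between replicate numbers. In replicates 1 and 2 its signals were lower with high zinc than on control medium in both bulks (243 and 185 against 484 and 335, and 377 and 243 against 540 and 494). In replicate 3 the order was the opposite, with 565 against 259 in the non-accumulating and 557 against 368 in the accumulating bulk. Replicate 3 differed from the mean of replicates 1 and 2 by -0.61 and -0.47 in the control groups and by 1.35 and 0.84 in the high-zinc groups (non-accumulating first).

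Over all 12 leaf arrays the MTP11 zinc change was -0.26 (SE 0.29, 95% interval -0.89 to 0.37, adjusted p = 0.831), in a comparison where 0.0315% of 12688 probe sets passed. Without the 4 leaf arrays of replicate number 3 it was -0.81 (SE 0.20, adjusted p = 0.0320), and 4.89% of 13193 probe sets were called lower in that fit. Without those 4 arrays it was -0.88 (adjusted p = 0.133) in the non-accumulating and -0.74 (adjusted p = 0.218) in the accumulating bulk. With array weights on all 12 leaf arrays the MTP11 change was -0.60 (adjusted p = 0.0368), and 9.56% of 12688 probe sets were then called lower. The bulk difference of MTP11 in leaves was 0.35 (SE 0.29, adjusted p = 0.999), and limma called 0% of probe sets there, with 546 at an unadjusted p under 0.05.

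The clock gene GI (GIGANTEA), whose transcript follows the time of day, shifted with the replicate number in the opposite direction. GI in replicate 3 differed from replicates 1 and 2 by 1.65 and 1.71 in control leaves and by -1.10 and -0.71 in high-zinc leaves. Over the 12 leaf arrays MTP11 and GI correlated at r = -0.67 (rho = -0.57), as a description of arrays that share replicate numbers. The summed signal of the 5 leaf markers was 10862 to 15202 in control leaves and 5497 to 20304 in high-zinc leaves. The part of the replicate number, the clock or the marker genes in the MTP11 values was not tested.

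**Figure D2:**
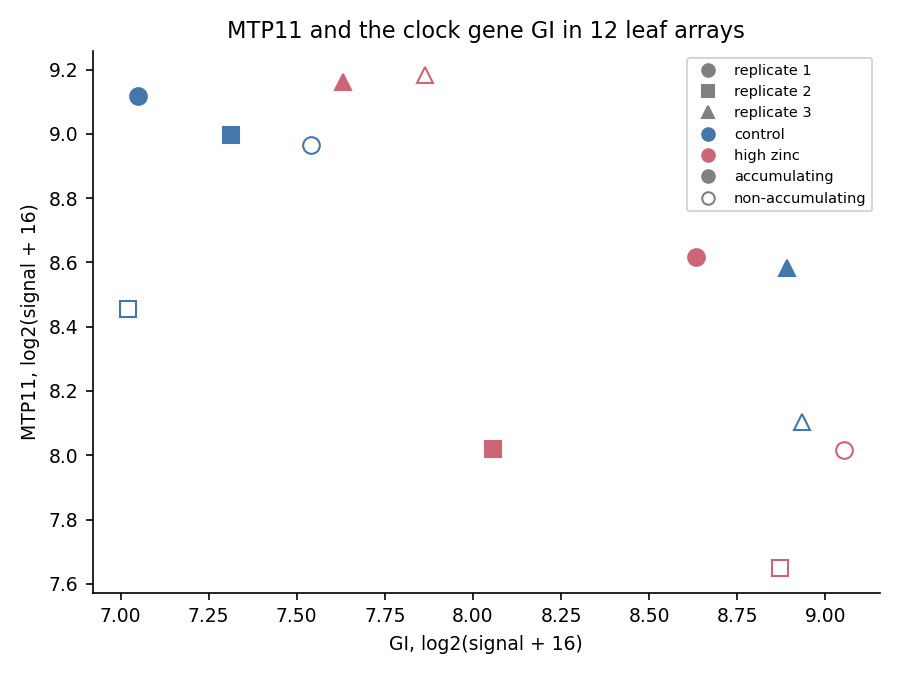
MTP11 (y axis) against the clock gene GI (x axis) in the 12 leaf arrays, both as log2(signal + 16); shapes are replicate numbers, colours are media, and filled symbols are the accumulating bulk. The high-zinc arrays of replicate 3 (MTP11 at 9.18 and 9.16) lie above the control arrays of replicates 1 and 2 on both axes, and the correlation was -0.67.

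AT3G58060, the gene of the vacuolar manganese carrier MTP8, had its highest group means in the roots of high-zinc plants. In non-accumulating roots the signals of replicates 1 to 3 were 59.2, 88.0 and 42.0 on control medium and 166, 147 and 147 with high zinc. Every high-zinc array of that bulk lay above every control array, as did those of 5.71% of all probe sets. In accumulating roots the signals were 37.1, 132 and 74.96 on control medium and 135, 88.3 and 167 with high zinc, and the groups overlapped because control replicate 2 was high and high-zinc replicate 2 low.

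The zinc change of AT3G58060 in roots was 0.90 (SE 0.23, 95% interval 0.40 to 1.40), or 1.87-fold on this scale, with an unadjusted p of 0.00182. After adjustment over all probe sets limma gave 0.553, so it did not pass. The gene was chosen with earlier results of these data known, so the unadjusted p-values given for it are descriptions only. The zinc change was 1.14 (SE 0.33) in the non-accumulating and 0.67 (SE 0.33) in the accumulating bulk. The bulk by zinc interaction was -0.47 (SE 0.46, adjusted p = 0.998). Leaving out each root array in turn kept the change between 0.72 and 1.09, with the adjusted p lowest (0.0981) without accumulating control replicate 2. The bulk difference in roots was -0.02 (SE 0.23, 95% interval -0.52 to 0.48).

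Signs of RNA integrity and root markers were recorded beside this change. For GAPDH, the log2 ratio of the 3' over the 5' signal was 1.33 to 1.64 in control and 1.38 to 1.71 in high-zinc roots, and that of actin was 1.02 to 1.49 and 1.23 to 1.81. The summed root markers ran from 1410 to 2307 in control and from 1435 to 2527 in high-zinc roots, and all 3 had positive zinc changes, none past the threshold, with a median of 0.54. Their part in the AT3G58060 values was not tested.

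In leaves AT3G58060 did not have the higher values with zinc. In non-accumulating leaves the signals were 98.4, 116 and 96.0 on control medium and 98.2, 46.0 and 114 with high zinc. In accumulating leaves they were 94.1, 64.7 and 139 and then 86.1, 10.7 and 114. Replicate 2 was the lowest of both high-zinc leaf groups, and the value of 10.7 was the lowest of all 24 arrays. The zinc change in leaves was -0.47 (SE 0.35, 95% interval -1.24 to 0.30, adjusted p = 0.720), and the bulk difference was -0.28 (SE 0.35, adjusted p = 0.999).

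The order of the organs in AT3G58060 means was not the same on the media. On control medium the root minus leaf change of AT3G58060 was -0.47 (SE 0.32, adjusted p = 0.213), and with high zinc it was 0.90 (SE 0.32, adjusted p = 0.0221), which passed as higher in roots, as did 31.4% of all probe sets. That call was lost without accumulating high-zinc leaf replicate 2 (0.55, adjusted p = 0.0779), non-accumulating high-zinc leaf replicate 2 (0.74, adjusted p = 0.0682) or accumulating high-zinc root replicate 3 (0.81, adjusted p = 0.0551). Over both media the change was 0.21 (SE 0.23, adjusted p = 0.409).

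In the non-accumulating bulk, every control root array of AT3G58060 lay below every control leaf array, and every high-zinc root array lay above every high-zinc leaf array. Of all probe sets, 20.1% were lower in roots without overlap in the first comparison and 28.9% higher without overlap in the second. The test of the difference itself, the organ by zinc interaction over both bulks, gave 1.38 (SE 0.45, 95% interval 0.44 to 2.31) with an unadjusted p of 0.00611 and an adjusted p of 0.525. It did not pass, in a comparison where 0.00694% of 14403 probe sets did. With array weights it was 1.13 and passed (adjusted p = 0.0484), with 3.67% of probe sets then called higher. The interaction was 1.43 (SE 0.64) in the non-accumulating and 1.32 (SE 0.64) in the accumulating bulk.

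**Figure D3:**
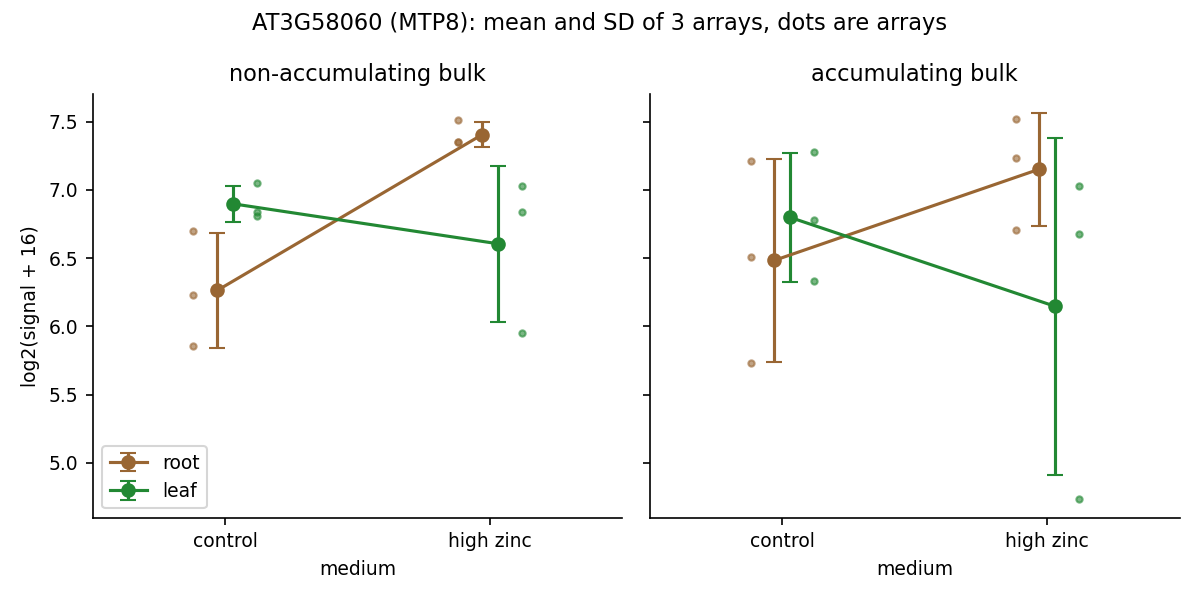
AT3G58060 (MTP8) as log2(signal + 16) on control and high-zinc medium in roots and leaves, for each bulk; large points and bars are the mean and SD of 3 arrays and small dots are arrays. The root mean is below the leaf mean on control medium and above it with high zinc in both bulks, and the organ by zinc interaction was 1.38 (SE 0.45, not past the threshold).

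From high to low, the group means of AT3G58060 were 154 (SD 11.0, n = 3) in non-accumulating and 130 (SD 39.7, n = 3) in accumulating high-zinc roots. They were 104 (SD 11.2, n = 3) in non-accumulating and 99.3 (SD 37.5, n = 3) in accumulating control leaves. The lower groups were non-accumulating high-zinc leaves (86.2, SD 35.7, n = 3), accumulating control roots (81.5, SD 48.0, n = 3), non-accumulating control roots (63.1, SD 23.3, n = 3) and accumulating high-zinc leaves (70.4, SD 53.6, n = 3), in the order of their log2 means. No neighbours in this order differed beyond their spread, and all of them overlapped.

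AT2G04620, the gene of MTP12, varied least, and its main difference was between the organs. Its signals ran from 54.4 to 93.7 with a median of 73.1 in roots and from 77.5 to 113 with a median of 94.5 in leaves. The mean was 72.9 (SD 11.7, n = 12) in roots and 93.7 (SD 9.59, n = 12) in leaves. The change was -0.31 (SE 0.08, adjusted p = 0.00259), so AT2G04620 passed as lower in roots, as did 27.4% of all probe sets. The organs overlapped.

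The non-accumulating control signals of AT2G04620 were 54.4, 93.7 and 72.8 in roots and 94.6, 113 and 88.9 in leaves. With high zinc they were 84.7, 76.5 and 83.1 in roots and 83.0, 94.4 and 86.7 in leaves. The organs of this bulk overlapped on both media. In the accumulating bulk the signals were 54.8, 77.6 and 73.4 in control roots and 98.1, 77.5 and 98.8 in control leaves, and 61.6, 69.9 and 72.3 in high-zinc roots against 100.3, 101.9 and 87.3 in the leaves. The last pair of groups alone did not overlap, as was so for the 19.8% of probe sets that were lower in those roots.

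The root minus leaf change of AT2G04620 passed in the accumulating bulk (-0.39, SE 0.12, adjusted p = 0.00880), where 22.5% of all probe sets passed as lower. In the non-accumulating bulk it was -0.23 (SE 0.12, adjusted p = 0.0998) and did not pass, but it did with quantile normalization (0.0348), median centring (0.0422) and without non-accumulating control root replicate 2 (0.0325). The organ by bulk interaction was -0.15 (SE 0.17, adjusted p = 0.999). The change passed on control medium (-0.36, adjusted p = 0.0129, with 22.0% of all passing as lower) and not with high zinc (-0.26, adjusted p = 0.0715, but 0.0321 with median centring, 0.0356 with quantile normalization and 0.0393 with array weights), with an organ by zinc interaction of 0.10 (SE 0.17). The order of its group means again put the 4 leaf groups, from 98.8 (SD 12.5, n = 3) in non-accumulating control down to 88.0 (SD 5.81, n = 3) in non-accumulating high-zinc leaves, over the 4 root groups, from 81.4 (SD 4.35, n = 3) to 68.0 (SD 5.59, n = 3). All neighbours in that order overlapped.

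Zinc and bulk differences of AT2G04620 were small. The zinc change was 0.07 (SE 0.13, 95% interval -0.21 to 0.35) in roots and -0.03 (SE 0.11, 95% interval -0.28 to 0.22) in leaves. The bulk difference was -0.14 (SE 0.13) in roots and 0.01 (SE 0.11) in leaves. In high-zinc roots all 3 accumulating arrays lay below all 3 non-accumulating arrays, a difference of -0.22 (SE 0.18, adjusted p = 0.944), as did those of 5.10% of all probe sets.

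**Figure D4:**
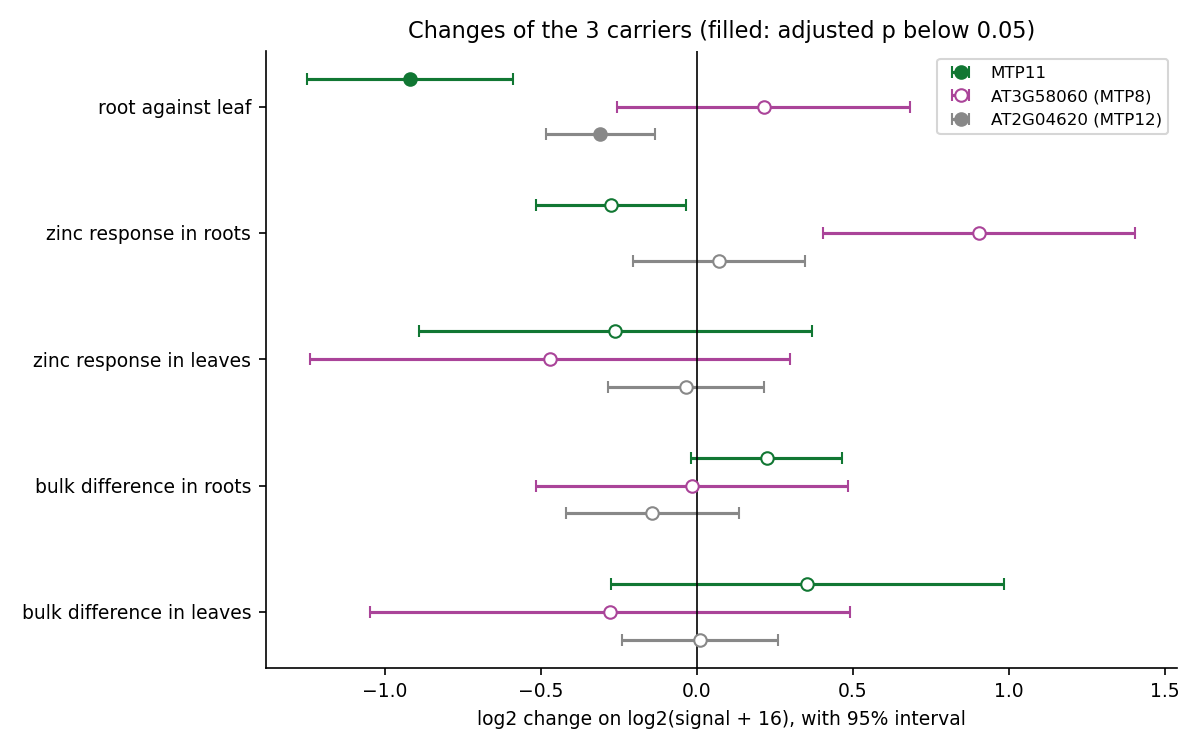
Log2 change with its 95% interval (x axis) of the 3 carriers in 5 comparisons (rows); filled points passed an adjusted p of 0.05. The root minus leaf changes of MTP11 (-0.92) and AT2G04620 (-0.31) passed, and no zinc or bulk difference of the 3 did.

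Within an organ, correlations between the carriers lay between -0.46 and 0.52. MTP11 and AT3G58060 correlated at r = -0.46 over the 12 root arrays and at 0.49 over the 12 leaf arrays, MTP11 and AT2G04620 at -0.26 and -0.20, and AT3G58060 and AT2G04620 at 0.52 and -0.10. These values describe arrays that share groups and replicate numbers. Over all 24 arrays the gene most like MTP11, of 7869 compared by Pearson's r, was GME (0.90), which encodes GDP-mannose epimerase of ascorbate synthesis, followed by ARD4 (0.89), AT5G13770 (0.88), AT5G55620 (0.87) and AT1G79870 (0.87). GME was also the most like MTP11 over the 12 leaf arrays (0.91), and AT3G57780 was over the 12 root arrays (0.89).

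The genes most like AT3G58060 over 24 arrays were AT3G26950 (r = 0.73), AT5G66710 (0.68), AT1G09230 (0.67), AT1G75420 (0.66) and AT1G55830 (0.63). Over the roots it was SEC6 (0.86), a gene of the exocyst complex, and over the leaves GH9C2 (0.92), a glycosyl hydrolase gene. For AT2G04620 they were AT1G64710 (0.78), AT5G64816 (0.77), AT5G16980 (0.76), AT2G10850 (0.76) and AT3G13662 (0.76), with AT3G14120 (0.85) first in roots and AT5G45230 (0.88) first in leaves. AT3G58060 had the weakest likeness of the 3 over all arrays.

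Of the 12 genes listed for the metal tolerance protein family, 7 were matched to a probe set by the listed symbol or locus. Between the organs 2 of the 7 passed as higher in roots, 3 as lower and 2 did not pass, with a median change of -0.05 against 0.13 over all probe sets. Of all probe sets 67.9% passed, 40.4% as higher and 27.4% as lower, so the share of the family was near that of all. AT1G16310 (MTP10) was higher by 2.30 (SE 0.21, adjusted p = 4.56e-09), with signals of 10.5 to 217 in roots and 2.21 to 8.07 in leaves. The leaf signals of AT1G16310 lay below the filter, so the size of that change depends on the pseudocount. AT2G47830 (MTP6) was higher in roots by 0.49 (SE 0.16, adjusted p = 0.00939), at 83.1 to 148 in roots and 26.3 to 128 in leaves.

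AT1G79520 (MTP9) was lower in roots by a log2 change of -0.55 (SE 0.17, adjusted p = 0.00685), and AT1G51610 (MTP7) changed by -0.05 (SE 0.20, adjusted p = 0.848). MTP11 and AT2G04620 were the other 2 genes with lower signals in roots. None of the 6 family genes tested in each organ passed for zinc or bulk. In roots the zinc change of AT3G58060 was the largest of the 6, followed by AT1G16310 at 0.37 (SE 0.36) and AT1G51610 at -0.30 (SE 0.17). A further probe set, with the only symbol MTPA1, was not counted in the matched genes. It had signals of 1.79 to 22.5 and did not pass the filter. The zinc carrier gene MTP1 was not analysed here.

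**Figure D5:**
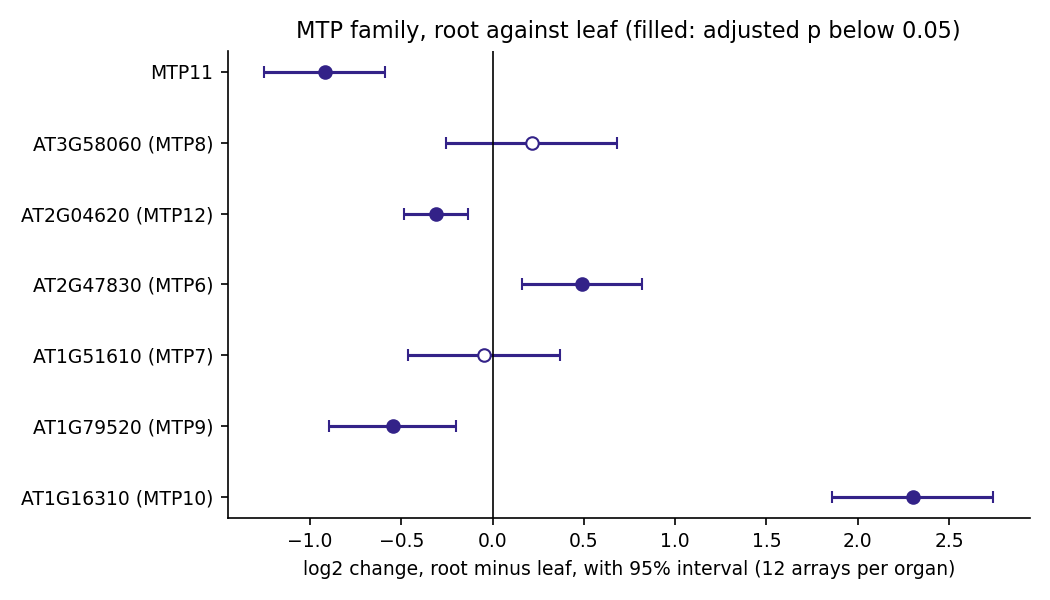
Root minus leaf log2 change with its 95% interval (x axis, 12 arrays per organ) of the 7 matched genes listed for the metal tolerance protein family (rows). Filled points passed an adjusted p of 0.05. MTP11, AT2G04620 and AT1G79520 were lower in roots, and AT2G47830 and AT1G16310 higher.

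Other genes of metal handling were few on the named probe sets. Of 19 genes listed for manganese transport and use, 2 were named. AT1G64150 (PAM71), a chloroplast manganese transporter gene, was lower in roots by a log2 change of -1.42 (SE 0.14, adjusted p = 8.92e-09), and AT5G36290 (PML3), a Golgi member of the same family, was higher by 0.38 (SE 0.10, adjusted p = 0.00231). In that comparison of the organs 67.9% of all probe sets passed, 40.4% as higher in roots and 27.4% as lower. Neither of the 2 manganese genes passed for zinc, with -0.07 and -0.04 in roots and -0.54 (SE 0.20) and 0.03 in leaves. Of 24 genes for zinc transport 2 were named, ZIP6 and ZIP9, of which ZIP9 was higher in roots than in leaves (0.76, SE 0.14) and none passed for zinc or bulk.

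The iron deficiency list is set beside AT3G58060, which is known in A. thaliana as a gene induced in iron-deficient roots. Of the 21 listed genes 6 were named, and all 6 had positive zinc changes in roots, with a median of 1.10 and 0 past the threshold (limma). Over all 12489 probe sets of that comparison the median was -0.00025, and 0% passed. The median was 1.56 in the non-accumulating bulk, with 6 of 6 positive, and 0.53 in the accumulating bulk, with 5 of 6. BHLH101, a transcription factor gene of the iron response, changed by 1.17 (SE 0.27, adjusted p = 0.552), and AT3G13610, a coumarin synthesis gene, by 1.13 (SE 0.32, adjusted p = 0.564). The coumarin-related genes AT3G12900 and AT1G28680 changed by 2.39 (SE 0.48) and 1.06 (SE 0.34). BGLU42 changed by 0.41 (SE 0.15) and PYE by 0.10 (SE 0.16). BHLH101 and PYE passed the filter of the root fit only through the non-accumulating high-zinc roots, where their root means were highest. Their positive signs in that bulk are thus not independent of the filter, nor are the count of 6 and the median over both bulks. The list was also chosen with earlier results of these data known. Its signs and medians are therefore a description and no separate support. BHLH101 had signals of 3.45 to 27.7 in non-accumulating control roots, so the size of its change depends on the pseudocount. The part of iron or of these genes in the AT3G58060 values was not tested. Of 14 genes for the trans-Golgi and vacuole membranes, 4 were named and 0 passed for zinc or bulk in either organ.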

How the data were processed

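Total RNA was the starting material and biotin the label for the 24 arrays. The authors deposited linear MAS5 signals, an intensity per probe set, and the labels name MAS5 without a version. The trimmed mean of each array (2% at each end) was 100.0, so the deposited scaling was kept. The MAS5 version, the target signal and any detection calls were not given in the sources used here. Of 22810 probe sets 64 controls were left out. Of the deposited probe sets the platform's table gave 13513 1 symbol and 503 several, and only the former were named.

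The members and gene lists were chosen with earlier results of these data known. Signals were tested as log2(signal + 16) with limma 3.58.1 in R 4.3.3 (a mean per group, moderation with a trend, Benjamini-Hochberg adjustment at 0.05), in separate fits of 12 root and 12 leaf arrays and 1 fit of all 24. Probe sets were kept where the highest group mean, taken on the log2 scale, exceeded the median of all values (56.3, 53.3 and 54.8), which left 12489, 12688 and 14403. Changes are high zinc minus control, accumulating minus non-accumulating, or root minus leaf. Genes named beside the 3 carriers were list members past the threshold, metal genes regardless of value and, for likeness, those with the highest r. The 6 iron genes were named after their values were seen. The steps were tested on simulated data. Alternatives were other pseudocounts and filters, quantile normalization, median centring, no trend, array weights, the replicate number as a block, a joint fit of both organs, no leaf arrays of replicate 3, and each array left out.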

Additional observations from a re-analysis of the deposited data

Results flagged for a closer look

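AT3G58060 (MTP8) was picked out because, in the non-accumulating bulk, its 3 control root arrays all lay below the control leaf arrays while its 3 high-zinc root arrays all lay above the high-zinc leaf arrays. The arrays that led to this pick also gave the interaction, so its positive sign was fixed in advance and is no separate support. The organ by zinc interaction in that bulk was 1.43 (SE 0.64, unadjusted p = 0.0356). It did not pass over all probe sets, with an adjusted p of 1.000 from limma.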

How the results depend on the processing

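The 39 results of the 3 carriers were recomputed under 1101 alternatives, of which 1045 kept direction and side of the threshold, 3 lost a call, 9 gained one and 44 changed sign in values that were not called. The root minus leaf calls of MTP11 and AT2G04620 over all groups held under every alternative that gave a value; under the stricter filter AT2G04620 had none, and AT3G58060 had none in leaves. The MTP11 zinc change in leaves passed at -0.60 with array weights and at -0.81 without the leaf arrays of replicate 3. AT2G04620, root against leaf with high zinc, passed at -0.31 with quantile normalization, -0.32 with median centring and -0.27 with array weights, and in the non-accumulating bulk at -0.31 with quantile normalization, -0.30 with median centring and -0.31 without non-accumulating control root replicate 2. AT3G58060, organ by zinc interaction, passed at 1.13 with array weights. AT3G58060, root against leaf with high zinc, was 0.55 to 1.12 with single arrays left out.

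Sign changes of MTP11 were in the organ by zinc interaction, at 0.0030 with a pseudocount of 64, 0.0055 with median centring, 0.34 with array weights and 0.53 without the leaf arrays of replicate 3, and from -0.17 to 0.21 with arrays left out. In the non-accumulating bulk it was 0.57 with array weights, 0.63 without leaf replicate 3 and from -0.34 to 0.43 with arrays left out. AT3G58060 reversed at 0.012 for the bulk difference in roots with quantile normalization. With arrays left out its bulk difference spanned -0.20 to 0.17 in roots (-0.50 to 0.072 in leaves). Root against leaf ran from -0.081 to 0.19 in the non-accumulating and from -0.0063 to 0.57 in the accumulating bulk. AT2G04620 reversed for zinc at 0.067 in accumulating roots and 0.020 in leaves with array weights, and for the bulk in leaves at -0.023 without leaf replicate 3. With arrays left out its zinc change ran from -0.011 to 0.15 in roots, -0.020 to 0.30 in non-accumulating roots, -0.13 to 0.075 in accumulating roots and -0.083 to 0.0091 in leaves, and its bulk difference in leaves from -0.023 to 0.057. The causes were not tested.

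Counts of probe sets past the threshold for zinc in leaves, 4 as reported, were 2 without a filter, 7 with quantile normalization, 2 without a trend, 2427 with array weights, 111 in 1 fit of all arrays, 1219 without leaf replicate 3 and 1 to 12 with arrays left out. For the bulk in leaves, 0 as reported, they were 1 without a filter, 234 with array weights, 4 in 1 fit and 1 without leaf replicate 3. With arrays left out the counts were 0 to 6 for zinc and 0 to 1 for the bulk in roots. Root against leaf gave 6413 with the stricter filter, where fewer probe sets were tested.

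The replicate numbers were not taken as pairing the arrays, since same-numbered arrays correlated over 0.1 in their deviations in 3 of 6 leaf and 1 of 6 root pairs of replicate 1, and in 4 of 6 root pairs of replicate 2. In replicate 2 of the leaves and replicate 3 of both organs 6 of 6 pairs did. The same-numbered array was the best match in 6 of 6 pairs of replicate 3 in both organs. It was so in 5 of 6 leaf and 4 of 6 root pairs of replicate 2, but in 1 of 6 leaf and 2 of 6 root pairs of replicate 1. Replicates 2 and 3 thus shared part of their spread across groups, which the fits without a block do not model. A replicate block gave 61 calls for zinc and 1 for the bulk in leaves. With the replicate block the zinc change of AT3G58060 in roots kept its value of 0.90 (adjusted p = 0.265) and no call of the 3 carriers changed.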
